A study of Canis lupus familiaris with 9 samples.

Results

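The genes described here make up the enzymatic defence of skeletal muscle against reactive oxygen, in 5 classes: superoxide dismutases, enzymes that remove peroxides, the thioredoxin system, the glutathione system, and the KEAP1-NRF2 pair with genes tied to it. Of 42 genes listed by name, 37 had a probe set whose only gene symbol on the array was the listed one, out of 15115 genes with such a probe set. For each gene the probe set with the highest mean over the arrays was taken, and 35 of the 37 passed the filter on low values (4 or more arrays above log2 4). Over the whole array, 7534 genes had any probe set naming them alone past that filter. Each of 9 intact female beagles, 4 years old, gave skeletal muscle for 1 Affymetrix canine array after 24 weeks of feeding and an overnight fast. The ad libitum group (animals 2, 5, 6, 7 and 8, n = 5) ate without restriction, and the control group (animals 1, 3, 4 and 9, n = 4) received what held body weight at baseline. Both groups ate the same commercial food, Purina Pro Plan Performance Formula, and dogs were assigned to a group at random. The labels name neither the muscle sampled nor the degree of weight gain.

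Superoxide leaks from the respiratory chain and is made by NADPH oxidases. Superoxide dismutases turn it into hydrogen peroxide, which catalase, glutathione peroxidases and peroxiredoxins reduce to water. Peroxiredoxins are recharged mostly by thioredoxin and glutathione peroxidases by glutathione, both of which draw electrons from NADPH through their own reductases. KEAP1 holds the transcription factor NRF2 at a low level by marking it for degradation, and oxidants or electrophiles that modify KEAP1 let NRF2 switch on many of these genes. Working muscle makes oxidants with every contraction, and the secreted peroxidase GPX3 is a product of kidney, fat and muscle.

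The arrays resembled each other, with r = 0.976 to 0.994 across probe sets for the 36 pairs and 0 pairs of identical values. All 9 tested markers of skeletal muscle were measured at high values, and the log2 of their summed level was 18.8 to 18.9 in ad libitum dogs, against 18.8 to 18.9 in control dogs. The value of the 3' minus the 5' GAPDH control probe set, a measure of RNA length, was 2.14 to 2.29 in ad libitum and 1.96 to 2.22 in control dogs, and that of actin was 5.13 to 6.67 in ad libitum and 5.08 to 5.33 in control dogs. For actin, ad libitum dogs 2, 5, 6 and 8 (5.57, 6.67, 5.60 and 5.96) lay above every control. The part of this measure in the differences below was not tested. The labels name no batch. With 9 arrays precision was limited, and the standard error of a log2 difference had a median of 0.197 over the tested probe sets.

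The comparison asked which antioxidant genes of muscle differed between dogs that ate freely and dogs held at constant weight. None passed the test. Of the 35 genes tested, 0 had an adjusted p under 0.05 (limma with Benjamini-Hochberg adjustment over 18394 probe sets), as did 0% of all probe sets, and the lowest adjusted p of a gene was 0.796. At an unadjusted p under 0.05 there were 4 of 35 genes (11.4%), against 5.91% of all probe sets: GPX1, TXN, TXNRD1 and MGST1. All 4 had higher means in ad libitum muscle, where 3.71% of all probe sets had such a p in that direction. On the probe sets taken, which lay above log2 4 on all 9 arrays, the groups overlapped for each of the 35 genes, against 1.44% of all probe sets without overlap. With values below log2 4 raised to 4, or without ad libitum dog 8, 1 of all probe sets passed the adjusted threshold, and in neither case was it one of these genes.

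Higher means in ad libitum muscle were found for 25 of the 35 genes (71.4%), against 48.4% of all probe sets. These genes were chosen with earlier results of these data known, and each was read on its brightest probe set. The shares over all probe sets, here and above, include dimmer ones. They are given as a setting for the counts and are no test of a trend. Over all 35 the signed log2 difference had a median of 0.059, against -0.0082 over all probe sets, and its size without sign a median of 0.182, against 0.150. Of the 35 differences 13 lay within 0.1 of 0. The number of genes with higher means was 19 with each array centred on its median, and it ran from 21 without control dog 3 to 27 without control dog 4. Control dog 3 had the lowest of the 9 values for 13 of the 35 genes, more often than any other dog. By class, the median difference was 0.15 for the 2 superoxide genes tested, 0.045 for the 10 peroxide genes, 0.29 for the 7 thioredoxin genes, 0.14 for the 12 glutathione genes and 0.042 for the 4 KEAP1-NRF2 genes. Without control dog 3 these medians were 0.0030 for superoxide, 0.032 for peroxide, 0.15 for thioredoxin, 0.032 for glutathione and -0.034 for KEAP1-NRF2 genes.

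**Figure D1:**
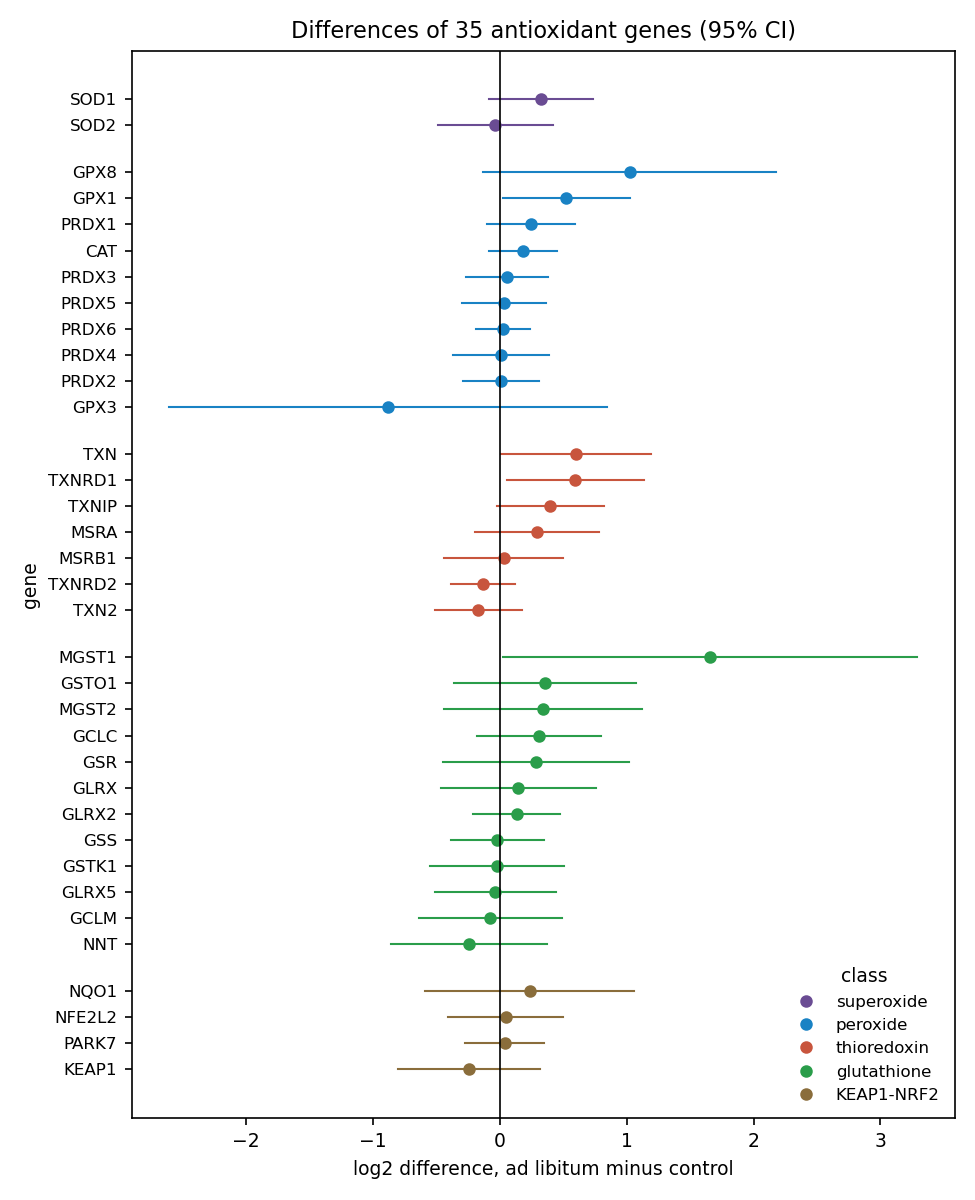
Log2 differences (ad libitum minus control) of the 35 tested genes with 95% confidence intervals from the limma fit, grouped by class. Only the intervals of GPX1, TXN, TXNRD1 and MGST1 lie above 0, before any adjustment, and that of GPX3 is the widest, from -2.61 to 0.85.

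Superoxide genes showed no group difference that could be told from the spread between dogs. SOD1, the Cu,Zn enzyme of the cytosol, had log2 values of 12.07, 11.76, 12.18, 11.50 and 11.71 in ad libitum dogs 2, 5, 6, 7 and 8, against 11.43, 11.17, 11.82 and 11.65 in control dogs 1, 3, 4 and 9. The top values were those of ad libitum dogs 6 and 2 and the lowest that of control dog 3, with the rest of the groups overlapping. The SOD1 difference was 0.33 (SE 0.18, adjusted p = 0.796, limma), and 3 tested probe sets of the gene gave 0.16 to 0.33. It was 0.21 without control dog 3 and 0.19 with the mean of adipocyte markers, described below, as a covariate. SOD2, the manganese enzyme of the mitochondrial matrix, had 10.68, 10.56, 11.07, 11.00 and 10.68 in ad libitum dogs, against 10.68, 10.33, 11.23 and 11.10 in control dogs. Its highest and lowest values were both from control dogs, and the difference was -0.035 (95% confidence interval -0.49 to 0.42). Another SOD2 probe set gave -0.24, with the lowest value in ad libitum dog 2 (7.94). SOD3, the secreted enzyme, lay at 0.77 to 0.78 in ad libitum and at 0.78 in control dogs, near the bottom of the array's scale, and was not tested.

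Among the peroxide genes, the secreted glutathione peroxidase GPX3 varied more between control dogs than between the groups. GPX3 stood at 6.72, 6.21, 6.77, 7.64 and 7.49 in ad libitum dogs 2, 5, 6, 7 and 8, against 8.71, 10.09, 6.21 and 6.37 in control dogs 1, 3, 4 and 9. Control dogs 3 and 1 had the highest values of all, while control dogs 4 and 9 were among the lowest, so the ad libitum dogs lay between both pairs of controls or beside the lower pair. The group means were 6.97 ± 0.59 in 5 ad libitum dogs and 7.84 ± 1.88 in 4 controls (SD), which gave a log2 difference of -0.88 (SE 0.77, adjusted p = 0.863, limma). A two-sided exact permutation test over all arrangements of the dogs gave p = 0.389, where the smallest p possible is 0.00794. Without control dog 3 the difference was -0.13, and without control dog 4 it was -1.42, so its size rested on which controls were kept.

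The second GPX3 probe set gave nearly the same picture at lower values. It had 4.40, 3.85, 4.70, 5.70 and 5.89 in ad libitum dogs 2, 5, 6, 7 and 8, against 6.62, 8.21, 4.07 and 4.14 in control dogs 1, 3, 4 and 9. Control dogs 3 and 1 were again the top dogs, followed by ad libitum dogs 8 and 7, and the difference was -0.85. Control dog 3 thus had the highest GPX3 value of the 9 dogs on both probe sets while it had the lowest value for 13 of the other antioxidant genes. The mean of the adipocyte markers was 9.06 in control dog 1, 8.07 in dog 3, 7.36 in dog 4 and 8.59 in dog 9. With that mean as a covariate the GPX3 difference was -0.89.

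**Figure D2:**
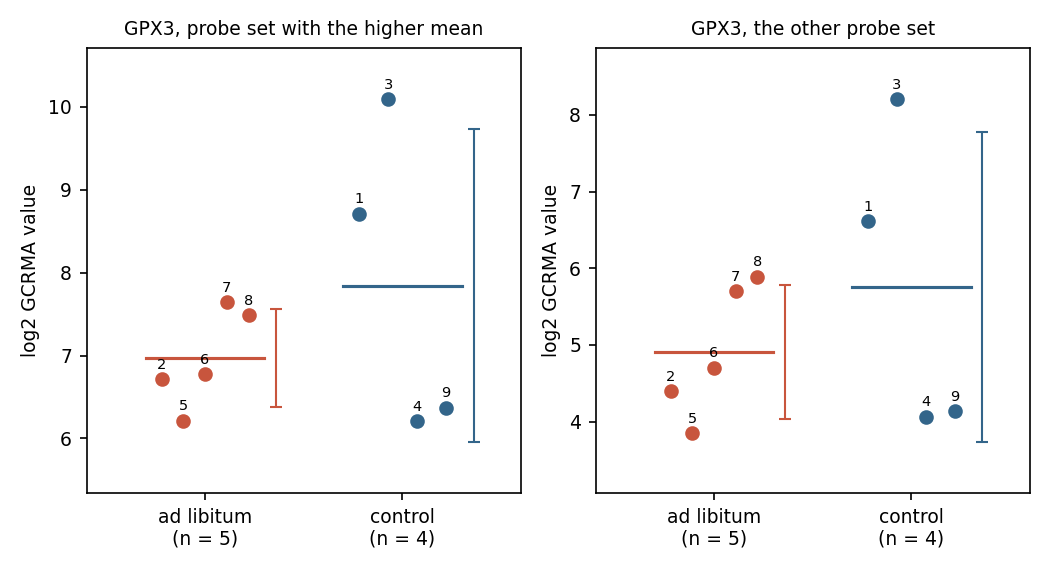
Log2 values of both GPX3 probe sets in each dog, ad libitum (red) and control (blue), labelled by animal number, with the group mean as a line and the SD as a bar. On both probe sets control dogs 3 and 1 stand above the other 7 dogs.

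The cytosolic glutathione peroxidase GPX1 was higher on average in ad libitum muscle. GPX1 had 12.09, 12.43, 11.88, 11.50 and 11.34 in ad libitum dogs 2, 5, 6, 7 and 8, against 11.33, 11.15, 11.57 and 11.25 in control dogs 1, 3, 4 and 9. Ad libitum dogs 5, 2 and 6 lay above every control, and dogs 7 and 8 lay among the controls. The difference was 0.53 (SE 0.22, unadjusted p = 0.0422, adjusted p = 0.796, limma), a 1.44-fold higher mean, and the 3 probe sets of GPX1 gave 0.49 to 0.53. GPX8, a peroxidase-like protein of the endoplasmic reticulum membrane, had 7.71, 8.39, 8.36, 6.22 and 7.94 in ad libitum dogs, against 7.42, 5.70, 7.41 and 6.28 in control dogs. In 4 of 5 ad libitum dogs GPX8 was above every control, while ad libitum dog 7 was below all controls but dog 3. The GPX8 difference was 1.02 (SE 0.51, adjusted p = 0.796, limma), with 0.69 without control dog 3, 1.40 without ad libitum dog 7 and 0.39 with the adipocyte covariate. GPX7, its relative in the lumen of the same organelle, lay at 3.25 to 3.47 in ad libitum and 2.80 to 3.28 in control dogs, below the filter.

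Peroxiredoxins, the most abundant peroxide-reducing proteins of many cells, had nearly equal means in both groups except for PRDX1. PRDX2 averaged 13.13 ± 0.23 in ad libitum dogs and 13.12 ± 0.07 in controls (SD, n = 5 and 4), and its difference of 0.0072 had a 95% confidence interval of -0.29 to 0.31. PRDX6, the peroxiredoxin with a single catalytic cysteine, differed by 0.025 (-0.19 to 0.24), and the mitochondrial PRDX3 by 0.059 (-0.26 to 0.38). PRDX5, which is found in mitochondria and elsewhere, differed by 0.031, and PRDX4 of the endoplasmic reticulum by 0.0087. Another PRDX4 probe set, at lower values, gave -0.15. PRDX1, a cytosolic peroxiredoxin and known NRF2 target, had the largest difference of the family at 0.25 (SE 0.15, adjusted p = 0.806, limma). Catalase, CAT, the peroxisomal enzyme, averaged 12.95 ± 0.07 in ad libitum dogs and 12.77 ± 0.21 in controls (SD, n = 5 and 4), a difference of 0.18, or 0.085 without control dog 3. GPX4, which reduces lipid peroxides in membranes, and SRXN1, sulfiredoxin, had no probe set by the rule and were not analysed here.

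In the thioredoxin system, genes of the cytosolic arm had higher means in ad libitum muscle and those of the mitochondrial arm did not. Thioredoxin, TXN, which passes electrons to peroxiredoxins and other proteins, had 10.78, 11.57, 11.29, 10.26 and 10.65 in ad libitum dogs 2, 5, 6, 7 and 8, against 10.20, 10.55, 10.50 and 10.01 in control dogs 1, 3, 4 and 9. All ad libitum dogs but dog 7 lay above the highest control, and dogs 5 and 6 stood out. The TXN difference was 0.60 (SE 0.26, unadjusted p = 0.0480, adjusted p = 0.796, limma), and another probe set gave 0.30. TXNRD1, the cytosolic reductase that recharges thioredoxin, had 8.45, 8.60, 9.28, 9.37 and 9.05 in ad libitum dogs, against 8.53, 8.05, 8.08 and 8.77 in control dogs. Here ad libitum dogs 7, 6 and 8 were the high ones, whereas dogs 2 and 5, high for GPX1, lay among the controls. The TXNRD1 difference was 0.59 (SE 0.24, unadjusted p = 0.0345, adjusted p = 0.796, limma), a 1.51-fold higher mean, and 4 probe sets gave 0.20 to 0.61.

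TXN2, the mitochondrial thioredoxin, had 10.92, 10.47, 10.52, 10.96 and 10.65 in ad libitum dogs 2, 5, 6, 7 and 8, against 10.66, 11.11, 10.98 and 10.75 in control dogs 1, 3, 4 and 9. The groups overlapped and the difference was -0.17 (95% confidence interval -0.51 to 0.17), or -0.092 without control dog 3, -0.11 without ad libitum dog 5 and 0.0040 with the adipocyte covariate. Another TXN2 probe set gave -0.25. Its reductase, TXNRD2, differed by -0.13 and by -0.045 without control dog 3. The TXNRD2 value was within 0.02 of 7.66 on 6 of 9 arrays, with 7.49 in ad libitum dog 7 and 8.01 in control dog 3, and another probe set gave 0.029. TXNIP, which binds and inhibits thioredoxin and rises with glucose in many cells, averaged 14.35 ± 0.12 in ad libitum dogs and 13.96 ± 0.42 in controls (SD, n = 5 and 4). The TXNIP difference was 0.40 (SE 0.19, adjusted p = 0.796, limma), and it was 0.19 without control dog 4, the lowest dog at 13.34, and 0.090 with the adipocyte covariate. The methionine sulfoxide reductases, which use thioredoxin to repair oxidized methionine, differed by 0.29 for MSRA and 0.030 for MSRB1. MSRA was 0.13 without control dog 3 and 0.46 without control dog 9.

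**Figure D3:**
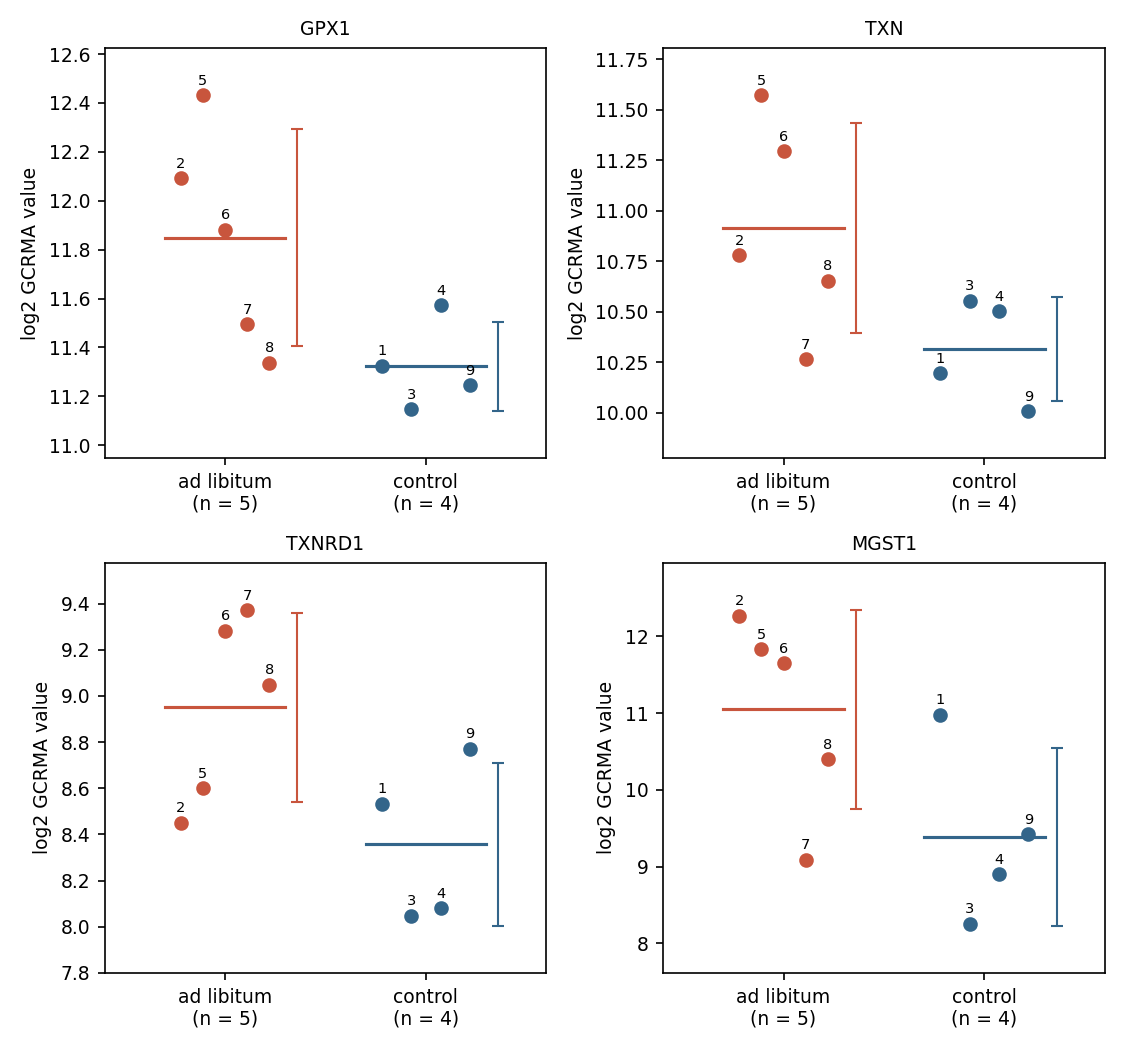
Log2 values of GPX1, TXN, TXNRD1 and MGST1 in each dog, ad libitum (red) and control (blue), labelled by animal number, with the group mean as a line and the SD as a bar. Ad libitum dogs 2, 5 and 6 are high for GPX1 and MGST1, and dogs 6, 7 and 8 for TXNRD1.

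Of the glutathione genes, the membrane-bound transferase MGST1 had the largest difference. MGST1, which conjugates glutathione to electrophiles and reduces lipid peroxides, had 12.27, 11.83, 11.65, 9.09 and 10.40 in ad libitum dogs 2, 5, 6, 7 and 8, against 10.98, 8.26, 8.90 and 9.42 in control dogs 1, 3, 4 and 9. Ad libitum dogs 2, 5 and 6 lay above every control, dog 8 lay below control dog 1, and dog 7 lay among the lower controls. The group means were 11.05 ± 1.30 in ad libitum dogs and 9.39 ± 1.16 in controls (SD, n = 5 and 4), a difference of 1.66 (SE 0.73, unadjusted p = 0.0473, adjusted p = 0.796, limma). The other tested MGST1 probe set gave 1.74. With the adipocyte covariate the MGST1 difference was -0.0066 (SE 0.50). The adipocyte markers of each dog, and the limit of that fit, are given below. Its relative MGST2 differed by 0.34, and another probe set gave 0.076. Leaving out control dog 4 gave 0.088 for MGST2, leaving out ad libitum dogs 2 or 6 gave 0.14 or 0.53, and the adipocyte covariate gave -0.22.

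Genes that make, recycle and spend glutathione differed by less. The catalytic and modifier subunits of glutamate-cysteine ligase, the first step of glutathione synthesis, differed by 0.31 for GCLC (SE 0.22) and by -0.075 for GCLM (SE 0.25). The GCLC value was 0.14 without control dog 1, 0.18 without ad libitum dog 6 and 0.58 with the adipocyte covariate. Another GCLC probe set lay at 5.41 to 5.61 in ad libitum and 5.09 to 5.40 in control dogs. Its difference was 0.27 (SE 0.11, unadjusted p = 0.0326, adjusted p = 0.796, limma). All 5 ad libitum dogs lay above every control there, but by a very small margin. Ad libitum dogs 2, 5 and 6 had the same value, 5.4071, and control dog 9 had 5.4042. Glutathione synthetase, GSS, the second step, differed by -0.019, and the reductase GSR by 0.29, or 0.032 without control dog 3, 0.093 without ad libitum dog 7 and 0.55 without control dog 9. The transferases GSTO1 and GSTK1 differed by 0.35 (SE 0.32) and -0.022 (SE 0.24). GSTO1 was 0.14 without control dog 3, 0.17 without ad libitum dog 2 and -0.13 with the adipocyte covariate. The glutaredoxins, which remove glutathione from protein thiols or, in the case of GLRX5, take part in iron-sulfur cluster assembly, differed by 0.14 for GLRX, 0.13 for GLRX2 and -0.037 for GLRX5. GLRX was higher in control dog 1 (12.61) than in every ad libitum dog and lower in control dog 9 (11.28) than in every other dog, and its difference was 0.40 without control dog 1 and -0.043 without control dog 9. GSTM3 and MGST3 had no probe set by the rule and were not analysed here, and the 3 probe sets that name GSTP1 name other genes too.

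NNT, the transhydrogenase of the inner mitochondrial membrane that supplies NADPH to the mitochondrial thioredoxin and glutathione reductases, had the lowest difference of the class. NNT had 12.20, 11.79, 11.94, 12.31 and 13.02 in ad libitum dogs 2, 5, 6, 7 and 8, against 12.69, 11.89, 12.79 and 12.61 in control dogs 1, 3, 4 and 9. The highest value was that of ad libitum dog 8, and control dog 3 lay with the low ad libitum dogs. The difference was -0.24 (95% confidence interval -0.86 to 0.37, adjusted p = 0.895, limma), and 5 probe sets of NNT gave -0.24 to -0.15. With 1 dog left out it ran from -0.44 without control dog 3 (-0.43 without ad libitum dog 8) to -0.13 without ad libitum dog 5 (-0.15 without control dog 4).

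The KEAP1-NRF2 genes overlapped between the groups. NFE2L2, which encodes NRF2, averaged 8.84 ± 0.34 in ad libitum dogs and 8.80 ± 0.27 in controls (SD, n = 5 and 4), a difference of 0.046, with 0.28 on another probe set. KEAP1 had 11.31, 10.74, 11.27, 11.65 and 11.36 in ad libitum dogs 2, 5, 6, 7 and 8, against 10.96, 12.14, 11.56 and 11.38 in control dogs 1, 3, 4 and 9. Control dog 3 had the highest KEAP1 value and ad libitum dog 5 the lowest, and the difference of -0.24 (SE 0.25) was -0.035 without control dog 3, -0.11 without ad libitum dog 5, -0.43 without control dog 1 and 0.10 with the adipocyte covariate. NQO1, a quinone reductase often used to read NRF2 activity, had 7.40, 7.40, 7.92, 8.28 and 6.82 in ad libitum dogs, against 6.94, 6.64, 7.57 and 8.16 in control dogs. Both groups spanned nearly the same values, with a difference of 0.24 (SE 0.37), which ran from 0.0066 without control dog 3 to 0.51 without control dog 9 and moved by over 1.5 times without any 1 of ad libitum dogs 6, 7 and 8 or control dog 1. PARK7, or DJ-1, a redox-sensitive protein reported to stabilise NRF2, differed by 0.038 (95% confidence interval -0.27 to 0.35). GCLC, GCLM, TXNRD1, PRDX1 and NQO1 are known NRF2 targets, though not the only ones in the set. Their differences ran from -0.075 to 0.59.

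**Figure D4:**
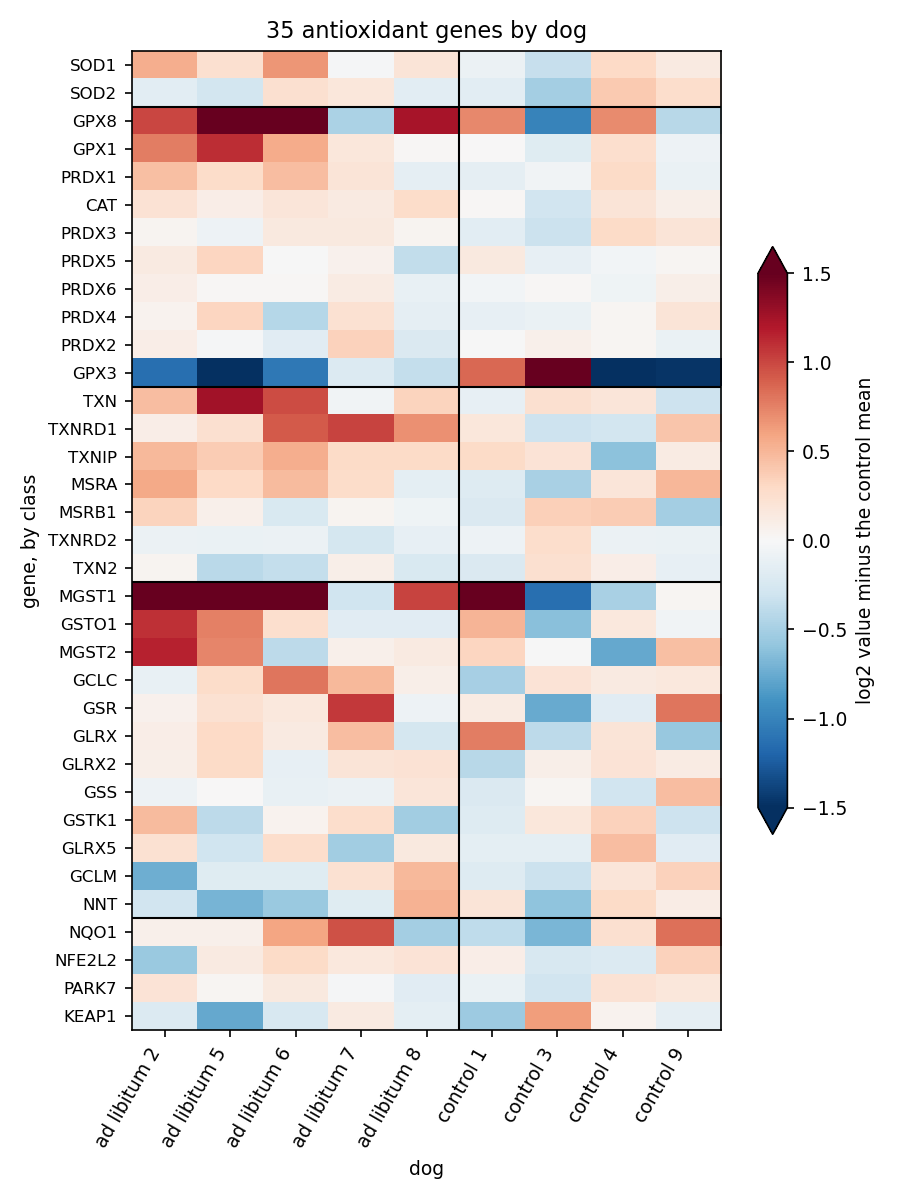
Log2 value minus the gene's control mean for the 35 tested genes (rows, by class) in each of the 9 dogs (columns, ad libitum left of the line and control right of it), with values beyond the ends of the colour bar drawn at its end colours. MGST1, GPX8 and GPX3 vary most from dog to dog, and within each group the dogs differ in which genes are high.

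Sorted by the main location of the protein, an assignment from textbook knowledge that the choice of genes did not use, 16 of 19 cytosolic proteins had genes that averaged higher in ad libitum muscle, and the median difference was 0.25. For the mitochondrial proteins it was 3 of 9, with a median of -0.035. The 3 were PRDX3, PRDX5 and GLRX2, and PRDX5 and GLRX2 are also found outside mitochondria, as GSTK1 among the 9 is. MSRA, PARK7 and GSR, counted as cytosolic, also occur in mitochondria, and other genes counted as cytosolic may do so too. The counts by location were added after the data were seen. The share over all probe sets was 48.4%. The cytosolic and mitochondrial partners ran 0.33 and -0.035 for SOD1 and SOD2, 0.60 and -0.17 for TXN and TXN2, and 0.59 and -0.13 for TXNRD1 and TXNRD2, while GLRX and GLRX2 were alike at 0.14 and 0.13. No test of the difference between both locations was made. The mitochondrial count was 6 of 9 without control dog 4 and 5 of 9 without ad libitum dog 5, with array weights or with the adipocyte covariate, and the cytosolic count was 12 of 19 with arrays centred on their medians and 14 to 17 of 19 with a dog left out.

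**Figure D5:**
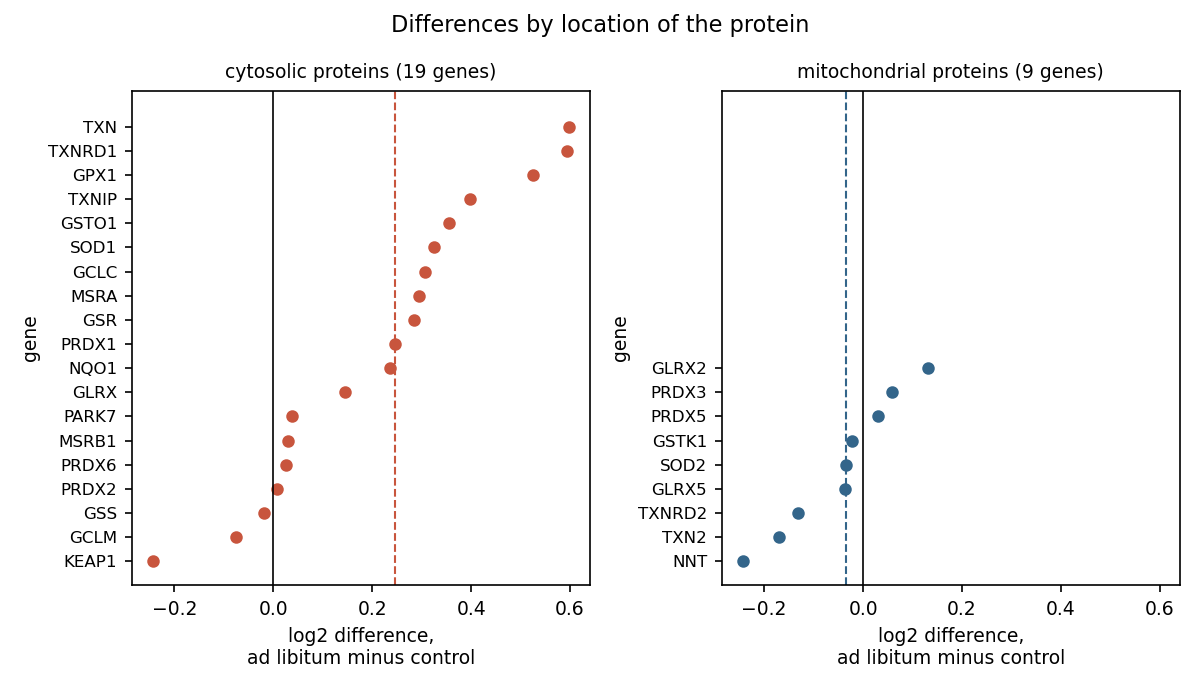
Log2 differences (ad libitum minus control) of the tested genes whose proteins are mainly cytosolic (19 genes) or mitochondrial (9 genes), each a point, with the median as a dashed line. The medians are 0.25 for cytosolic and -0.035 for mitochondrial proteins.

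Markers of other cells in the tissue varied from dog to dog as well. Of 13 adipocyte markers 11 had higher means in ad libitum muscle, and the log2 of their summed level was 13.6 to 15.3 in ad libitum and 13.4 to 14.9 in control dogs. Their list mean was 10.2, 9.57 and 9.73 in ad libitum dogs 2, 5 and 6, the dogs with high MGST1 and GPX1, and 8.17 in ad libitum dog 7, the dog with the lowest MGST1 of its group. Ad libitum dog 8 had a list mean of 9.42, above every control (7.36 to 9.06), while its MGST1 and GPX1 lay within the range of the controls. Among controls, only dog 1, with the highest list mean of them, had a higher MGST1. Only control dog 4, with the lowest list mean, had a higher GPX1. Of 13 macrophage markers 8 were tested and all 8 had higher means, against 48.4% of all probe sets, with a summed level of 8.40 to 12.0 in ad libitum and 8.19 to 9.14 in control dogs. CD14 was raised in ad libitum dogs 5 and 6 alone (7.99 and 6.19), with 4.62 to 4.63 in every other dog. CD163 lay above log2 4 on 4 ad libitum and 2 control arrays. CD68, CSF1R, AIF1, TYROBP and FCER1G, the rest of that list, did not pass the filter. Of these, CSF1R had 4.93, 6.79 and 5.75 and TYROBP 4.99, 7.13 and 5.03 in ad libitum dogs 2, 5 and 6, against at most 3.88 and 3.49 in control dogs, and CD68 and AIF1 were above log2 4 in ad libitum dog 5 alone. All 13 fibroblast markers had higher means, with a summed level of 13.0 to 16.9 in ad libitum and 12.9 to 14.4 in control dogs, and ad libitum dog 5 had the highest list mean of both macrophage (8.01) and fibroblast (11.5) markers. Endothelial markers were higher for 6 of 10, with a summed level of 11.5 to 12.3 in ad libitum and 11.8 to 12.0 in control dogs. The other 4 were lower, among them KDR at -0.41 (SE 0.30) and FLT1 at -0.67 (SE 0.17). For FLT1 all 5 ad libitum dogs lay below every control, where 1.44% of all probe sets had no overlap in either direction. Of 8 red blood cell markers 2 were tested, ALAS2 and GYPC. Neither had a higher mean (9.43 to 10.0 in ad libitum and 9.79 to 10.0 in control dogs). In bulk tissue a change in the number of such cells and a change in RNA per cell cannot be told apart.

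With the adipocyte marker mean as a covariate, 0 of the 35 genes had an unadjusted limma p under 0.05. The share of all probe sets with such a p was not counted in that fit. The difference of GPX1 was then 0.37, that of TXN 0.45 and that of TXNRD1 0.68. Standard errors of GPX1, TXN and TXNRD1 were larger in that fit, at 0.30, 0.36 and 0.33. The marker mean was itself higher in ad libitum dogs 2, 5, 6 and 8 (9.42 to 10.2) than in every control (7.36 to 9.06). Of its 13 markers 11 had higher means, while LPL (-0.30) and ADIPOR2 (-0.0067) had lower ones. ADIPOQ and CIDEC were highest in control dog 1. LEP and NNAT did not overlap between the groups, against 1.44% of all probe sets without overlap. The fit thus cannot separate the feeding group from the adipocyte markers, and no conclusion is drawn from differences that shrank in it. The part of macrophage and fibroblast markers in these differences was not tested.

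Neighbouring genes of the same pathways were described from 7 lists, and none of their genes passed the test. Of 10 tested genes that supply NADPH, 7 had higher means, with a median difference of 0.45, and the NAD kinase NADK, which makes NADP, differed by 0.63 (SE 0.25) and the cytosolic isocitrate dehydrogenase IDH1 by 1.05 (SE 0.54). Of 6 tested sources of oxidants 4 had higher means, with RAC2, a subunit of the phagocyte NADPH oxidase, at 1.07 (SE 0.55). RAC2 was 8.37 in ad libitum dog 5, against 5.33 to 6.54 in the other ad libitum dogs and 4.99 to 6.01 in control dogs. CYBB and CYBA of the same list were also highest in dog 5 (10.06 and 11.64), the dog with the highest macrophage marker mean. MAOB, a mitochondrial monoamine oxidase that releases hydrogen peroxide, differed by -1.01 (SE 0.41). Among 6 tested NRF2 targets outside the main set 4 had higher means, or 3 of 5 without the ferritin heavy chain FTH1, and the light chain FTL differed by 0.63 (SE 0.34). FTH1 had 3.88 to 5.10 in ad libitum and 3.49 to 3.90 in control dogs. It passed the filter through 4 ad libitum and 0 control arrays, so it had to differ, and its difference of 0.65 (SE 0.29) is given as a description. The 7 tested partners and regulators of NRF2 differed by -0.23, for the KEAP1 partner CUL3, to 0.22, for NFE2L1.

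Of 5 tested genes of metal handling all 5 had higher means, among them CCS, the copper chaperone of SOD1, at 0.39 (SE 0.14), and the metallothionein MT2A at 1.20 (SE 0.58). For CCS all 5 ad libitum dogs lay above the control mean and 4 above every control. Of 15 tested genes with a thioredoxin fold or selenocysteine 10 had higher means, with a median of 0.056, and SELENOP, the secreted selenium carrier, differed by -0.66 (SE 0.29) and TXNDC12 by 0.34 (SE 0.19). Of 9 other glutathione genes only 2 had higher means. The transferase GSTA4, which clears the lipid peroxidation product hydroxynonenal, had the lowest p of all these genes (unadjusted p = 0.0034, adjusted p = 0.796, limma). GSTA4 had 8.11, 8.53, 8.26, 7.63 and 8.31 in ad libitum dogs 2, 5, 6, 7 and 8, against 7.02, 6.62, 7.52 and 7.65 in control dogs 1, 3, 4 and 9. All ad libitum dogs but dog 7 lay above the highest control, and the difference was 0.97 (SE 0.25). GGCT, which breaks down gamma-glutamyl peptides, differed by -0.50 (SE 0.21).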

How the data were processed

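Trizol extracts of muscle RNA were made into biotin-labelled cRNA and put on Affymetrix arrays, per the labels' protocols. The deposited log2 values come from the authors' GCRMA run, per the submitters' processing notes. GCRMA corrects background, normalizes arrays by quantiles and summarises probe sets. No source used here states the log base, and the range of 0.652 to 16.6 was read as log2. A shift shared by most transcripts would not appear after such normalization, and low values are uncertain.

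Of 43035 probe sets, 111 controls were left out and 18394 entered the test. It was run in R 4.3.3 with limma 3.58.1 (functions lmFit and eBayes, two-sided, 7 residual and 2.32 prior degrees of freedom), with Benjamini-Hochberg adjustment over all of them. Symbols came from the 2016 platform annotation, which named 1 gene for 29254 probe sets and several for 439. The gene IDs of 27680 were listed for the UU_Cfam_GSD_1.0 assembly, and 0 symbols changed. The limma step was tested on simulated data. Members and lists were chosen with earlier results of these data known. Values by dog were given for GPX3, for members with an unadjusted p under 0.05 and for the largest difference in each direction per class, and up to 2 genes with the lowest p were named per pathway list. GSTA4 by dog, and the genes named for single dogs, were chosen after their values were seen. Alternatives changed the filter, a floor, the normalization, the eBayes settings, array weights, a covariate, the probe sets and the dogs included.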

Additional observations from a re-analysis of the deposited data

Results flagged for a closer look

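The values of 35 genes in both groups were examined for a dog far from the others of its group, 70 groups in all, of which chance marks about 5% (3.5), and 6 were found. TXNRD2 gave 2 of them: 7.49 in ad libitum dog 7, below the next value of 7.63, and 8.01 in control dog 3, above the next value of 7.67, on a probe set that was within 0.02 of its median on 6 of 9 arrays. GSR stood at 7.68 in ad libitum dog 7, above 6.85 in the next ad libitum dog. NFE2L2 stood at 8.24 in ad libitum dog 2, below 8.94 in the next. Among control dogs, GLRX5 stood at 11.67 in dog 4, above 11.06 in the next dog, and GCLC at 5.21 in dog 1, below 5.83 in the next.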

How the results depend on the processing

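No gene of the set passed an adjusted p under 0.05 (limma) in the planned fit or any of the 19 alternatives, and the lowest adjusted p of a gene was 0.241. GPX3 kept its direction in all of them (-1.42 to -0.13 with 1 dog left out). The 4 genes with an unadjusted p under 0.05 became 1 with no filter (37 genes tested), 2 with arrays centred on their medians, 1 with cyclic loess, 0 with the adipocyte covariate, 2 with the probe sets of each gene averaged, and 0 to 5 with 1 dog left out. The 0 came without ad libitum dog 6 or control dog 3, the 1 without ad libitum dog 2 or 5 or control dog 4 or 9, and the cause was not tested. Under the alternatives the share of all probe sets with such a p was not counted. No conclusion about these genes is drawn from the changed counts. The 25 genes with higher means ran from 21 to 27 with 1 dog left out, a count added after the data were seen, as were those by location. Genes without overlap between groups numbered 0 to 2 with a dog left out. The share of all probe sets without overlap was not counted in those fits, so no conclusion is drawn from these numbers. Probe sets past the adjusted threshold were 1 with a floor at log2 4 and 0 to 1 with a dog left out. No paired analysis was possible because the groups share no animal number.

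Of the 35 genes, 15 kept their direction under every alternative, and the other 20 turned in 58 of 664 values. With arrays centred on their medians PRDX2 was -0.035, PRDX4 -0.034, PRDX5 -0.011, PRDX6 -0.017, MSRB1 -0.012 and PARK7 -0.0043. With array weights PRDX2 was -0.013, PRDX4 -0.079, GLRX5 0.0069, GSTK1 0.0039 and PARK7 -0.0055. With the adipocyte covariate SOD2 was 0.14, PRDX5 -0.049, TXN2 0.0040, GCLM 0.25, GSTO1 -0.13, GSTK1 0.16, MGST1 -0.0066, MGST2 -0.22 and KEAP1 0.10. With the probe sets of each gene averaged PRDX4 was -0.086, MSRB1 -0.035 and GCLM 0.076. With 1 dog left out, genes that turned ran as follows: PRDX2 from -0.078 to 0.063, PRDX3 from -0.049 to 0.15, PRDX4 from -0.070 to 0.12, PRDX5 from -0.043 to 0.13, SOD2 from -0.20 to 0.095, MSRB1 from -0.14 to 0.16, GLRX from -0.043 to 0.40, GLRX2 from -0.0079 to 0.20, GLRX5 from -0.11 to 0.12, GCLM from -0.21 to 0.089, GSS from -0.11 to 0.14, GSTK1 from -0.15 to 0.10, NFE2L2 from -0.033 to 0.20 and PARK7 from -0.056 to 0.11. The cause was not tested.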
